A study of Homo sapiens with 4 samples.

Results

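The 10 genes described here were NOTCH1, NOTCH2, NOTCH3, JAG1, JAG2, RBPJ, HES1, HES4, HEY1 and HEYL, which encode receptors, ligands, the nuclear effector and target repressors of the Notch pathway. They were picked by symbol for their place in the pathway, by a rule that uses no measured value although earlier results of these data were known, from the 16878 genes listed for each library. Their mRNAs were read by RNA-seq from PANC-1, an established human pancreatic ductal carcinoma cell line, in FPKM, which scales fragment counts to transcript length and library size. The Control group (2 libraries, Control-1 and Control-2) was compared with the siSIRT1 group (2 libraries, siSIRT1-1 and siSIRT1-2), in which an siRNA against the NAD-dependent deacetylase SIRT1 had been transfected. RNA was taken 48 h after transfection. Control cells were transfected as well, with controls that are not described further, and the labels give no genetic change in either group and no statement that the libraries of a group came from separate cultures. The p-values below therefore measure only the spread between these libraries, which may be technical.

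Notch receptors are single-pass membrane proteins that are activated by ligands of the Jagged and Delta families on a neighbouring cell. Ligand binding exposes the receptor to ADAM metalloproteases and then to gamma-secretase, which frees the Notch intracellular domain (NICD). NICD enters the nucleus, binds the DNA-binding protein RBPJ together with a Mastermind coactivator, and turns on genes such as those of the HES and HEY basic helix-loop-helix repressors. NICD is a known substrate of SIRT1, and deacetylation by SIRT1 shortens its half-life in endothelial cells. In the adult pancreas Notch activity is low in acinar cells, and it is known to rise in ductal metaplasia and in pancreatic carcinoma. The comparison asks how the mRNAs of receptors, ligands and target repressors differed when SIRT1 was depleted. NICD itself and the activity of the pathway were not measured.

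In the siSIRT1 libraries, mRNAs of the repressors HES1, HES4 and HEYL were higher and mRNAs of the receptor NOTCH1 and the ligand JAG1 were lower than in Control. HES1 stood at 1.74-fold, HES4 at 1.65-fold and HEYL at 2.33-fold of Control, whereas NOTCH1 fell to 60.0% and JAG1 to 66.7% of Control. NOTCH2, NOTCH3, JAG2 and RBPJ did not pass the test, and HEY1 was too low to be tested. Of the 9 genes tested, 3 were higher and 2 were lower at an adjusted p below 0.05 (limma, Benjamini-Hochberg over all tested genes). The same criterion called 37.1% of the 12191 tested genes, with 24.0% higher and 13.1% lower. The median log2 difference of the 9 genes was 0.06, beside 0.07 over all tested genes. The lowest and highest values of the 2 groups did not overlap for any of the 9 genes, but this held for 69.0% of all tested genes and separates these genes little from the rest.

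SIRT1 was measured first as a check of the labels. Its mRNA stood at 10.5 and 10.3 FPKM in Control, against 1.8 and 2.05 FPKM with the siRNA, which is 18.6% of Control (adjusted p = 1.33e-05, limma). The siRNA in the study's supplementary list is shown because it defines the treated group, and its 19 bases match the canonical SIRT1 transcript once and the canonical transcripts of the 10 genes at no position. Only matches of all 19 bases were counted, so an effect of the siRNA through shorter matches was not tested.
siSIRT1: gugucaugguuccuuugca

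The 4 libraries were similar in depth, with 8620000 to 9160000 reads estimated from the spacing of low values, and each held 12123 to 12171 genes at 1 FPKM or more. All 6 epithelial and ductal markers were present at 1 FPKM or more, summing to 3975 and 4198 FPKM in Control and to 4677 and 5070 FPKM in siSIRT1. KRT8 and KRT18, with Control means of 2218 and 1536 FPKM, made up most of these sums. The markers did not rise as a set. KRT18 and KRT19 were called higher, and KRT7, KRT8, EPCAM and CDH1 were not called. CDH1 was lower in both siSIRT1 libraries (3.89 and 3.75 FPKM in Control, against 3.05 and 3.25 FPKM). None of the 3 endothelial, the 3 fibroblast or the 2 listed acinar markers reached 1 FPKM in any mean. Of the 3 leukocyte markers in the tables, CD68 (60.8 and 63.0 FPKM in Control, against 39.1 and 42.3 FPKM) and PTPRC (0.97 to 1.29 FPKM) did. The part of these marker differences in the results was not tested. In such bulk libraries, fewer cells that express a gene and less mRNA per cell cannot be told apart.

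Because FPKM is a value per transcript length, levels can be set side by side between genes. In Control the order by mean FPKM was HES4 (39.8), NOTCH2 (31.4), JAG1 (19.95), HES1 (14.5), JAG2 (13.9), NOTCH1 (8.32), RBPJ (5.55), NOTCH3 (3.11), HEYL (1.79) and HEY1 (0.405). No neighbours in this order overlapped, although HES1 and JAG2 were separated only by the step from 13.86 to 14.36 FPKM. HES4 thus ranked above 89.3% of all listed genes and NOTCH2 above 86.2%, whereas HEYL ranked above 33.5%. In siSIRT1, HES1 (25.2 FPKM) came to stand above both Jagged genes. JAG1 (11.85 and 14.75 FPKM) then overlapped JAG2 (14.38 and 14.50 FPKM), and HEYL (4.14 and 4.2 FPKM) reached the lower RBPJ library (4.2 FPKM).

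**Figure D1:**
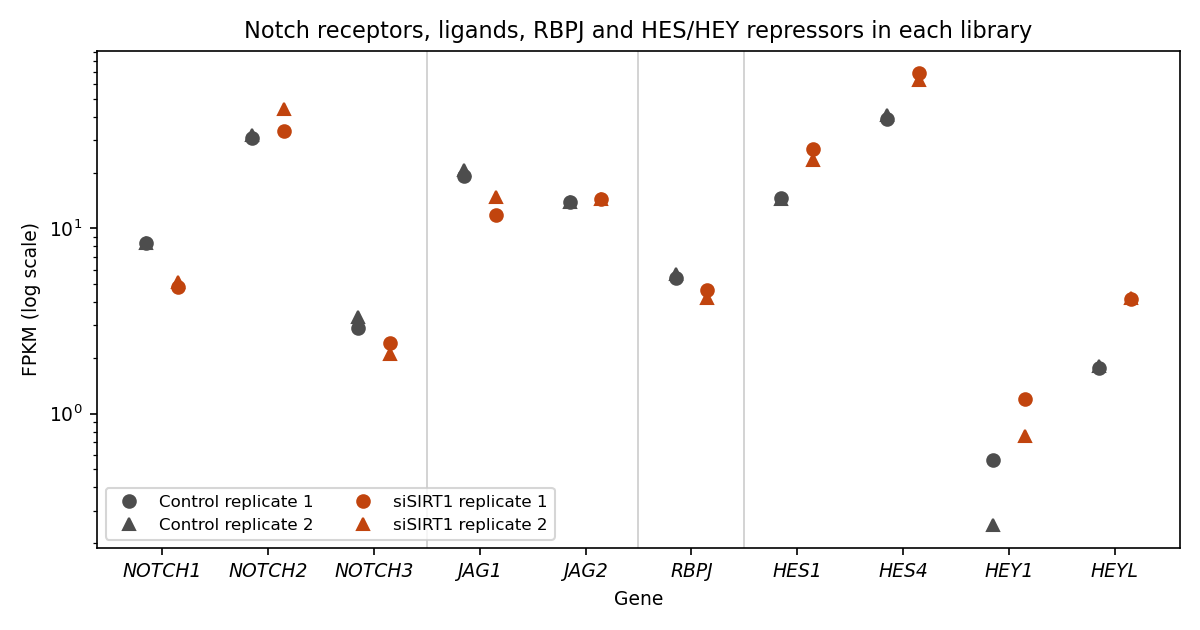
Expression of the 10 Notch genes in each library, in FPKM on a log10 axis, with 1 point per library, Control in gray and siSIRT1 in orange, and circles and triangles for replicates 1 and 2. HES1, HES4 and HEYL lie higher in both siSIRT1 libraries, NOTCH1 and JAG1 lie lower, and HEY1 lies near or below 1 FPKM throughout.

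Among the receptors, NOTCH1 fell. NOTCH1 (chromosome 9, 139388885 to 139440500, minus strand, GRCh37) was at 8.32 FPKM in both Control libraries, and siSIRT1 gave 4.84 and 5.15 FPKM. The Control values were equal at the precision of the tables and both siSIRT1 values were below them. The difference was -0.64 on the log2(FPKM + 1) scale (SE 0.10, 95% confidence interval -0.87 to -0.40, adjusted p = 0.00175, limma). On this scale the change of a low gene is understated, because 1 FPKM is added to every value.

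NOTCH2, a receptor closely related to NOTCH1, was the most abundant of the receptors. It lies on chromosome 1 (120454176 to 120643366, minus strand). Its values were 30.7 and 32.1 FPKM in Control, against 33.6 and 43.9 FPKM in siSIRT1. The 2 siSIRT1 libraries differed from each other by more than the lower of them differed from Control. The difference of 0.28 (SE 0.11, interval 0.03 to 0.54) did not pass the test (adjusted p = 0.0773, limma). It passed under 2 of the 11 settings that kept all libraries. These were an adjustment for transcript length (0.32, adjusted p = 0.0063, limma) and a replicate block (adjusted p = 0.00606, limma). The size of the difference depended on single libraries. Without siSIRT1-1 it was 0.47 (adjusted p = 0.00434), without siSIRT1-2 it was 0.10 (adjusted p = 0.295), and without Control-1 or Control-2 it was 0.25 or 0.32 (adjusted p = 0.225 and 0.131). NOTCH2 also shares near-identical sequence with the NOTCH2NL copies on the same chromosome. The copy listed as NOTCH2NL stood at 0.0869 to 0.137 of the NOTCH2 value across the libraries, so the split of reads between these genes is uncertain.

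NOTCH3, a receptor best known from vascular smooth muscle, lies on chromosome 19 (15269849 to 15311806, minus strand). It was measured at 2.90 and 3.32 FPKM in Control, against 2.42 and 2.10 FPKM in siSIRT1. Both siSIRT1 values lay below both Control values, and the log2 difference was -0.33 (SE 0.13, interval -0.63 to -0.03, adjusted p = 0.0778, limma). NOTCH3 passed the threshold under 4 of 14 other settings, with an adjusted p between 0.035 and 0.124 when all libraries were kept. NOTCH4, the remaining human receptor, stood between 0.29 and 0.72 FPKM and was below the filter on low values.

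The make-up of the receptor mRNA pool followed these values. NOTCH2 supplied 72.7% and 72.8% of the summed FPKM of the 4 receptors in Control, against 81.3% and 84.7% in siSIRT1. NOTCH1 supplied 19.7% and 18.9% in Control, against 11.7% and 9.92% in siSIRT1. The ratio of NOTCH2 to NOTCH1 was therefore 3.69 and 3.86 in Control, against 6.94 and 8.53 in siSIRT1. The receptor sum itself was 42.19 and 44.03 FPKM in Control, against 41.3 and 51.9 FPKM in siSIRT1, so the groups overlapped in total receptor mRNA.

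Of the Jagged ligands, which present the activating signal to the neighbouring cell, JAG1 fell and JAG2 did not pass the test. JAG1 (chromosome 20, 10618332 to 10654647, minus strand) was at 19.2 and 20.7 FPKM in Control, against 11.9 and 14.8 FPKM in siSIRT1. Both siSIRT1 libraries lay below Control, with a log2 difference of -0.56 (SE 0.11, interval -0.80 to -0.31, adjusted p = 0.00421, limma). JAG2 (chromosome 14, 105607319 to 105635161, minus strand) was at 13.8 and 13.9 FPKM in Control, against 14.5 and 14.4 FPKM in siSIRT1. Its difference was 0.06 (SE 0.08, adjusted p = 0.616, limma), and the interval from -0.12 to 0.24 does not reach the size of the JAG1 change. The sign of the JAG2 difference turned under 5 of the 14 other settings. The annotation places a long non-coding RNA gene over each Jagged gene, on the opposite strand for JAG1 and on the same strand for JAG2, and whether reads were counted by strand is not given in the sources used here.

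The ratio of JAG2 to JAG1 was 0.722 and 0.669 in Control, against 1.22 and 0.975 in siSIRT1. Jagged mRNA was not the larger share of the ligand mRNA in these cells. DLL3, a divergent Delta-like protein that is known to act inside the cell on its own Notch rather than to activate receptors on a neighbour, was at 61.9 and 55.4 FPKM in Control, against 97.4 and 89.8 FPKM in siSIRT1 (log2 difference 0.67, adjusted p = 0.000287, limma). Of the summed FPKM of the 5 ligand genes, JAG1 supplied 19.95% and 22.8% in Control, against 9.49% and 12.3% in siSIRT1, while DLL3 supplied 64.4% and 60.8% in Control, against 78.1% and 75.0% in siSIRT1. DLK2, a non-canonical ligand related to the Delta family, was at 12.2 and 11.9 FPKM in Control, against 19.1 and 17.2 FPKM in siSIRT1 (log2 difference 0.55, adjusted p = 0.00156, limma). DLL1 and DLL4, which activate receptors on neighbouring cells, stayed below 1 FPKM in every library. DLL4 was at 0.82 and 0.64 FPKM in Control, against 0.25 and 0.14 FPKM in siSIRT1, an estimated 4 to 25 reads per library. With no filter on low values it was called lower (log2 difference -0.53, adjusted p = 0.0231, limma). DLL1 was not called in that fit (0.25, adjusted p = 0.0872, limma).

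**Figure D2:**
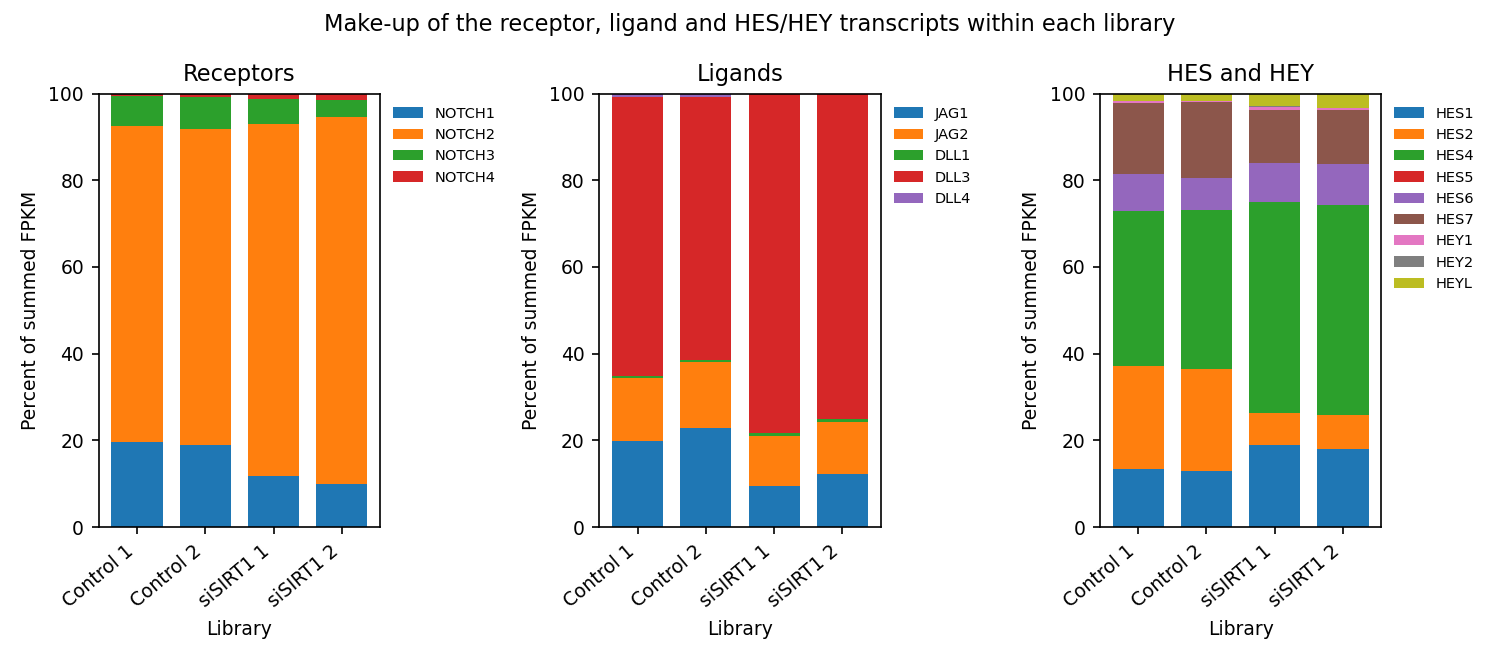
Share in percent of the summed FPKM that each gene supplied to the receptor pool, the ligand pool and the HES and HEY pool, as 1 stacked bar per library. The NOTCH1 and JAG1 shares are smaller in both siSIRT1 libraries, and the HES4 and HES1 shares are larger while that of HES2 is smaller.

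RBPJ, the DNA-binding protein through which NICD reaches its targets and which represses them with corepressors in the absence of NICD, was not called. It lies on chromosome 4 (26165077 to 26436753, plus strand). Its values were 5.39 and 5.71 FPKM in Control, against 4.64 and 4.2 FPKM in siSIRT1. The siSIRT1 libraries were the lower ones, with a log2 difference of -0.27 (SE 0.11, interval -0.53 to -0.02, adjusted p = 0.0898, limma). It passed the threshold under 2 of 14 other settings, median-of-ratios and upper-quartile scaling (adjusted p = 0.041 and 0.0462). RBPJ has processed copies elsewhere in the genome, and how reads were divided among them is not given.

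HES1, HES4 and HEYL, which encode repressors bound to E-box or N-box DNA and which are direct targets of the NICD and RBPJ complex in many cell types, were the genes that rose. Their upstream sequences are shown because these promoters are where RBPJ would bind. They are the 250 bases before the RefSeq start on the gene's strand, and each matched GRCh37 exactly and once, at chr3:193853687-193853936 (plus) for HES1, chr1:935478-935727 (minus) for HES4 and chr1:40105316-40105565 (minus) for HEYL. Capitals mark the RBPJ core motif GTGGGAA and its variant GTGTGAA, searched on both strands, so that they also appear as TTCCCAC and TTCACAC.
HES1: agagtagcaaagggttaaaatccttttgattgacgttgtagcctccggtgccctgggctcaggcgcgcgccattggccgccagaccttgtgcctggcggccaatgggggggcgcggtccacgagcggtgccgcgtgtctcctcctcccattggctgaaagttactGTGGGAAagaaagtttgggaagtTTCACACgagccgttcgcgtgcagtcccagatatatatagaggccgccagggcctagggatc
HES4: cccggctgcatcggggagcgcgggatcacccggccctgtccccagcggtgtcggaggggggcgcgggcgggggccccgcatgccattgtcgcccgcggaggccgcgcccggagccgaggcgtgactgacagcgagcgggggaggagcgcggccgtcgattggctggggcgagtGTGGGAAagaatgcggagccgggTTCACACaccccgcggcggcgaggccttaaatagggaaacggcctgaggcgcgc
HEYL: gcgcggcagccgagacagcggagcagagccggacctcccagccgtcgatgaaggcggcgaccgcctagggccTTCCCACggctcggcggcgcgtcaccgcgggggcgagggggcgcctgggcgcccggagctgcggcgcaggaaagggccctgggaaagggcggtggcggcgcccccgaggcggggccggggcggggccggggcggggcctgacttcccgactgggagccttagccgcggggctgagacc

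In HES1 the first bases of GTGGGAA and TTCACAC were at positions -85 and -62 from the start, and in HES4 they were at -77 and -54. In both, 16 bases separated the facing motifs, which is the arrangement known as the paired RBPJ site. HEYL held a single TTCCCAC at -178. Of all 35116 RefSeq promoter windows of 300 bases (250 before the start and 50 from it), 6.25% held GTGGGAA on either strand, 3.0% held GTGTGAA and 8.98% held at least one of them. The paired arrangement, GTGGGAA or GTGTGAA followed by TTCCCAC or TTCACAC after 15 to 17 bases, was found in 2 windows, those of HES1 and HES4. This spacing was set with the HES1 and HES4 sequences already known, so the match is a description only. Of the 9 genes with a listed window, GTGGGAA was also found at 1 of 5 RBPJ starts, and those of NOTCH1, NOTCH2, NOTCH3, JAG1 and JAG2 held neither motif. The same letters were present in 5 of 56 other pathway genes with a window. A match of letters does not show that RBPJ was bound, and binding was not measured here.

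HES1, the best-known Notch target in the pancreas, lies on chromosome 3 (193853937 to 193856521, plus strand). It was at 14.6 and 14.4 FPKM in Control, against 26.8 and 23.5 FPKM in siSIRT1. Both siSIRT1 values were well above both Control values. The log2 difference was 0.75 (SE 0.09, interval 0.56 to 0.95, adjusted p = 0.000315, limma).

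HES4, a HES1-related repressor present in the human but not in the mouse genome, was the most abundant of the 10 genes in both groups. It lies on chromosome 1 (934342 to 935552, minus strand), and this gene model reaches into the upstream stretch shown above. It was at 38.9 and 40.8 FPKM in Control, against 68.7 and 63.0 FPKM in siSIRT1. The groups were far apart against the spread within them, with a log2 difference of 0.71 (SE 0.07, interval 0.56 to 0.87, adjusted p = 0.000145, limma). HES4 and HES1 moved by a like amount in each library, and their ratio was 2.66 and 2.84 in Control, against 2.56 and 2.68 in siSIRT1, where the groups overlapped.

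HEYL, a repressor of the HEY subfamily and a target of NOTCH3 in vascular cells, lies on chromosome 1 (40089107 to 40105315, minus strand). It was a low gene, at 1.76 and 1.82 FPKM in Control, against 4.14 and 4.2 FPKM in siSIRT1. These values correspond to an estimated 64 and 67 Control reads, against 143 and 152 reads after siSIRT1. The 2 libraries of each group were close together and the groups apart. The log2 difference was 0.89 (SE 0.12, interval 0.61 to 1.17, adjusted p = 0.000786, limma), and it was 1.18 when 0.1 FPKM was added in place of 1.

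HEY1, the related repressor, was measured at 0.56 and 0.25 FPKM in Control, against 1.20 and 0.76 FPKM in siSIRT1. Its mean over the 4 libraries was under the 1 FPKM that a gene had to reach to be tested. The values rest on an estimated 5 to 22 reads per library, and the siSIRT1 libraries were the higher ones. With no filter the difference was 0.49 (SE 0.17, adjusted p = 0.113, limma), which did not pass the threshold at this depth. HEY1 lies on chromosome 8 (80674606 to 80680092, minus strand).

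**Figure D3:**
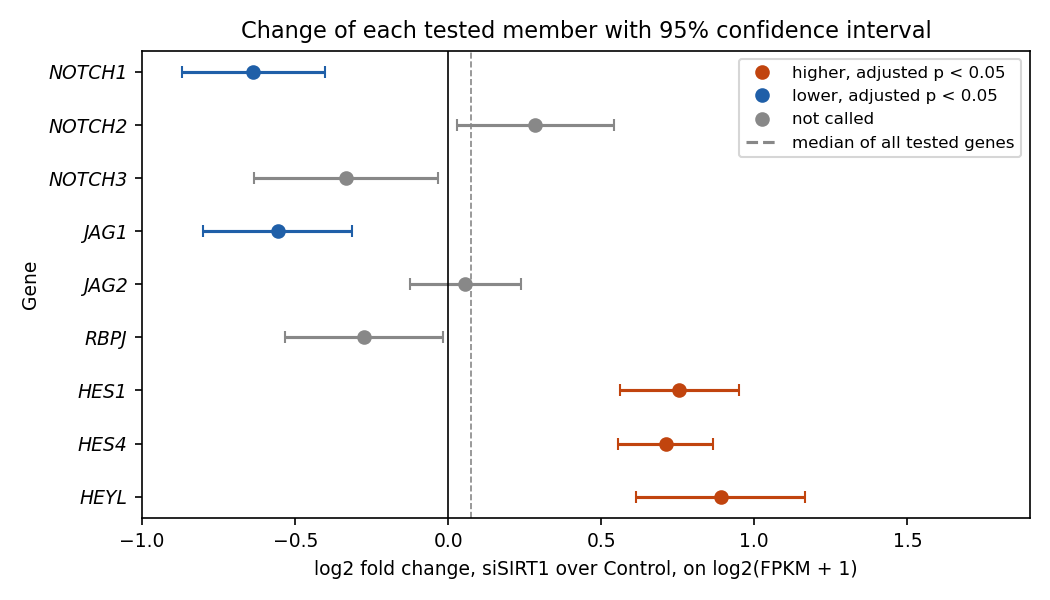
Log2 difference between siSIRT1 and Control on log2(FPKM + 1) for the 9 tested genes, with points at the estimate and bars for the 95% confidence interval, in orange where called higher, in blue where called lower and in gray where not called. The dashed line is the median of all tested genes. HES1, HES4 and HEYL lie above 0.5 with intervals clear of 0, NOTCH1 and JAG1 lie below -0.5, and JAG2 lies close to 0.

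Among the 10 genes, those called moved in opposite directions, the receptor NOTCH1 and the ligand JAG1 downward and the repressors upward. HES1 over NOTCH1 gives this as a ratio within each library, at 1.75 and 1.73 in Control and at 5.54 and 4.56 in siSIRT1. Roles were not split in this way across the pathway, since the ligands DLL3 and DLK2 were called higher. Of the other HES genes, HES2 was called lower and HES6 higher. The direction and the call of NOTCH1, JAG1, HES1, HES4 and HEYL were the same under all 14 other settings. With all libraries kept, their highest adjusted p was 0.0158 for NOTCH1, 0.0413 for JAG1, 0.0116 for HES1, 0.00861 for HES4 and 0.0118 for HEYL, in each case without the filter on low values. Long transcripts tended to lie lower and short ones higher in siSIRT1, with a median log2 difference of 0.18 for 1727 tested genes under 1500 bases and of -0.01 for 977 genes over 8000 bases. NOTCH1 (9568 bases) and JAG1 (5940 bases) are long, whereas HES4 (885 bases) and HES1 (1575 bases) are short. With this trend subtracted, all 5 genes were still called, and HES4 stood at 0.51 rather than 0.71.

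**Figure D4:**
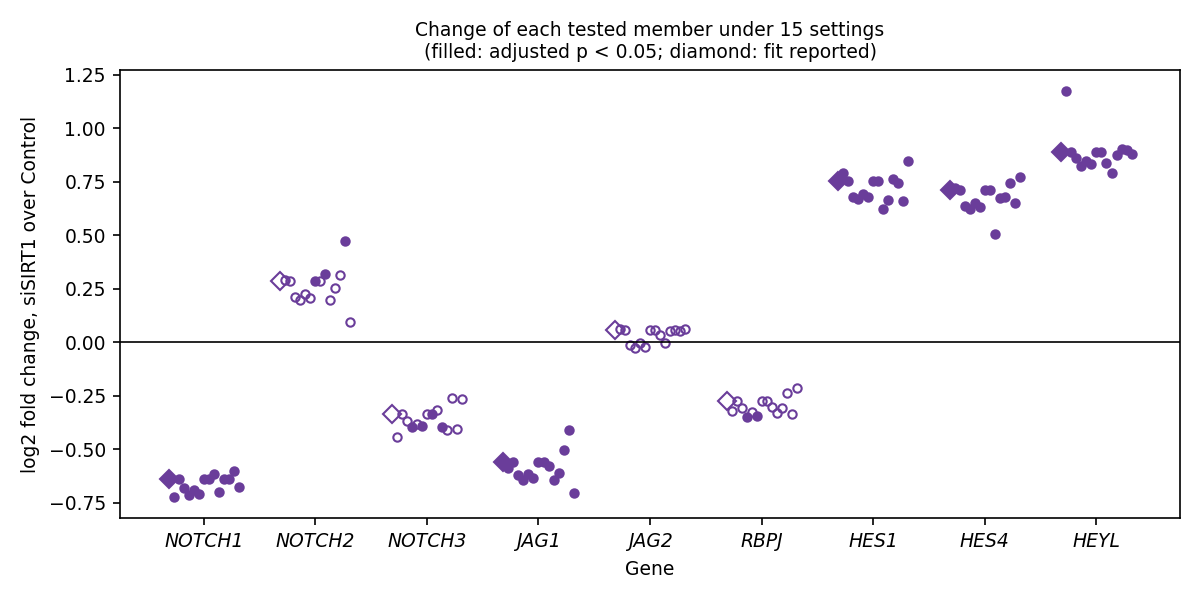
Log2 difference between siSIRT1 and Control for the tested Notch genes under the 15 settings, 1 point per setting, filled where called at an adjusted p below 0.05 and open where not, with a diamond for the reported fit. NOTCH1, JAG1, HES1, HES4 and HEYL are called in 15 of 15, JAG2 in 0, and NOTCH2, NOTCH3 and RBPJ in 3, 4 and 2.

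A further 68 genes of the pathway, listed by role, were read in the same way. Of these, 57 were tested, 12 were higher and 14 were lower (45.6% called, beside 37.1% of all tested genes), with a median log2 difference of 0.10. The share called was 37.5% for receptor cleavage and for coactivators. It was 33.3% for ligand endocytosis and for receptor and NICD turnover, and 22.2% for RBPJ corepressors. Higher shares were those of receptor glycosylation and Groucho corepressors (60.0% each), other reported targets (75.0%) and other receptors and ligands (100% of 2). Each role holds few genes, so the counts by role are descriptions only. Without Control-2 the count of 26 calls fell to 16, and 15 of the 26 were called under all 15 settings. Of the 31 tested genes that were not called, 9 passed under at least 1 other setting. The 11 genes below the filter were NOTCH4, DLL1, DLL4, DLK1, NEURL1, RBPJL, DTX1, DTX4, HES5, HEY2 and SNAI2, with values from 0 to 1.01 FPKM. With no filter, DLL4 was called lower and SNAI2 higher (adjusted p = 0.0231 and 0.0418, limma), and the rest were not called. SNAI2 was at 0.17 FPKM in each Control library, against 0.58 and 1.01 FPKM in siSIRT1, an estimated 3 to 19 reads per library.

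Of 5 tested genes of receptor glycosylation, 3 were lower and none was higher. The Fringe glycosyltransferases, which extend O-fucose on the receptor and so tune its response to Delta and Jagged ligands, were lower in all 3 cases. LFNG was at 20.9 and 21.7 FPKM in Control, against 15.2 and 13.6 FPKM in siSIRT1 (log2 difference -0.53, adjusted p = 0.00155, limma), and MFNG fell by 0.58 (adjusted p = 0.00769, limma). RFNG fell by 0.28 (adjusted p = 0.022, limma), a call that was lost without Control-1, Control-2 or siSIRT1-2. With all libraries kept, it was lost without the filter on low values (adjusted p = 0.0652, limma) and without the mean-variance trend. POFUT1 and POGLUT1, which add the first sugars, were not called.

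Of 3 tested genes of ligand endocytosis, 1 was lower. MIB1, the ubiquitin ligase that drives endocytosis of Jagged and Delta ligands in the sending cell, was at 6.27 and 7.62 FPKM in Control, against 2.21 and 3.24 FPKM in siSIRT1. It fell by 1.10 on the log2 scale (SE 0.16, adjusted p = 0.00104, limma). The related MIB2 was not called, with a difference of 0.23 (adjusted p = 0.0739, limma).

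Of 8 tested genes of receptor cleavage, 2 were lower and 1 was higher. ADAM10 and ADAM17, metalloproteases that can cut the receptor ahead of gamma-secretase, were both lower. ADAM10 was at 30.3 and 31.9 FPKM in Control, against 17.8 and 21.4 FPKM in siSIRT1 (log2 difference -0.64, adjusted p = 0.00103, limma), and ADAM17 fell by 0.69 (adjusted p = 0.00069, limma). FURIN, which cuts the receptor on its way to the cell surface, was higher by 0.47 (adjusted p = 0.000577, limma). The gamma-secretase subunits PSEN2, NCSTN, APH1A, APH1B and PSENEN did not pass the test, with differences between -0.16 and 0.20. PSENEN, the lowest of them at -0.16 (adjusted p = 0.158), was called lower under 5 of 14 other settings, at -0.33 with the length adjustment (adjusted p = 0.00153) and at -0.29 without siSIRT1-1 (adjusted p = 0.00827).

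In the nucleus, the Mastermind coactivators, which hold NICD and RBPJ together, differed in direction, and the other 5 of the 8 tested coactivators were not called. MAML1 was at 13.4 and 12.2 FPKM in Control, against 18.0 and 19.6 FPKM in siSIRT1 (log2 difference 0.52, adjusted p = 0.00225, limma). MAML2 fell by 0.53 (adjusted p = 0.0199, limma) and MAML3 by 0.62 (adjusted p = 0.00741, limma), both from values of at most 3.03 FPKM. The MAML3 call was lost without Control-2 and the MAML2 call without Control-1, Control-2 or siSIRT1-1. With all libraries kept, the MAML2 call was lost without the filter on low values (adjusted p = 0.0516, limma).

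Of 9 tested corepressors of RBPJ, 1 was higher and 1 was lower. NCOR1, which holds RBPJ targets silent, fell by 0.51 (adjusted p = 0.00243, limma), while the histone deacetylase HDAC1 was higher by 0.43 (adjusted p = 0.00102, limma). The Groucho family, through whose full-length members HES proteins repress, was split, with 2 of 5 higher and 1 lower. This balance depends on the setting. TLE2, at -0.31 (adjusted p = 0.0657, limma), was called lower under quantile, median-of-ratios and upper-quartile normalisation and with the length and GC adjustments. TLE4, at 0.32 (adjusted p = 0.0794, limma), was called higher without the mean-variance trend. TLE1 fell by 0.50 (adjusted p = 0.0043, limma), a call lost without Control-1 (adjusted p = 0.0537), and TLE3 was higher by 0.44 (adjusted p = 0.00313, limma). TLE5, a short family member, was at 132 and 126 FPKM in Control, against 171 and 159 FPKM in siSIRT1 (log2 difference 0.35, adjusted p = 0.00284, limma), and this call was lost without Control-2 (adjusted p = 0.0564).

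Of 9 tested genes of receptor and NICD turnover, 2 were higher and 1 was lower. FBXW7, the ubiquitin ligase receptor for NICD, fell by 0.37 (adjusted p = 0.0437, limma), and this call was lost without Control-1, Control-2 or siSIRT1-1. With all libraries kept, the FBXW7 call was lost without the filter on low values (adjusted p = 0.0788, limma). CCNC, the cyclin partner of the kinase CDK8 that marks NICD for FBXW7, was higher by 0.50 (adjusted p = 0.00363, limma), and CDK8 itself was not called. DTX3, a member of the Deltex family of ubiquitin ligases, was higher by 0.34 (adjusted p = 0.0184, limma). This call was lost under all 4 other normalisations, with the length and GC adjustments and without the filter on low values. It was also lost without Control-1, Control-2 or siSIRT1-2. The NICD antagonists NUMB and NUMBL were not called either. NUMBL, at 0.28 in the reported fit, passed with the replicate block (adjusted p = 0.0484, limma) and, at 0.37, without siSIRT1-2.

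Other genes listed as HES or HEY family members or as reported Notch targets did not share the direction of HES1, HES4 and HEYL. Of the 8 tested, 3 were higher and 3 were lower. HES2 and HES6 belong to the HES family, but whether Notch drives them in these cells was not tested. Apart from HES2 and HES6, SOX9 and NRARP were called lower and CCND1 and EFNB2 higher. HES2, a HES family repressor, was at 26.0 and 26.1 FPKM in Control, against 10.4 and 9.95 FPKM in siSIRT1, and it fell by 1.27 on the log2 scale (SE 0.08, adjusted p = 1.5e-05, limma). SOX9, the ductal transcription factor, was at 63.7 and 61.0 FPKM in Control, against 40.2 and 41.6 FPKM in siSIRT1 (log2 difference -0.60, adjusted p = 0.00021, limma). NRARP, a target and feedback inhibitor of the NICD complex, fell by 0.31 (adjusted p = 0.0142, limma), a call lost without Control-1 or Control-2 (highest adjusted p = 0.103). HES6, which antagonises HES1, was higher by 0.46 (adjusted p = 0.00576, limma), a call lost without Control-2 (adjusted p = 0.0616). HES7 and MYC did not pass the test, with differences of -0.15 and -0.12. HES7 was called lower with the length adjustment (adjusted p = 0.0161), and MYC under 4 of 14 other settings (lowest adjusted p = 0.0283), so the balance of higher and lower calls depends on the setting. CCND1 and EFNB2 were called higher, but each call was lost under more than 1 other normalisation, with the GC adjustment and without the filter. Each was also lost without either Control library or siSIRT1-2.

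Within the HES and HEY family the pool was thus redistributed. The summed FPKM of the family was 109 and 111 in Control, against 141 and 130 in siSIRT1. HES4 supplied 35.7% and 36.7% of it in Control, against 48.6% and 48.5% in siSIRT1, and HES1 supplied 13.4% and 12.9% in Control, against 19.0% and 18.1% in siSIRT1. HES2 supplied 23.9% and 23.5% in Control, against 7.39% and 7.67% in siSIRT1. HES1 stood at 0.561 and 0.55 of the HES2 value in Control and at 2.57 and 2.36 times it in siSIRT1, so the order of these genes was exchanged between the groups.

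**Figure D5:**
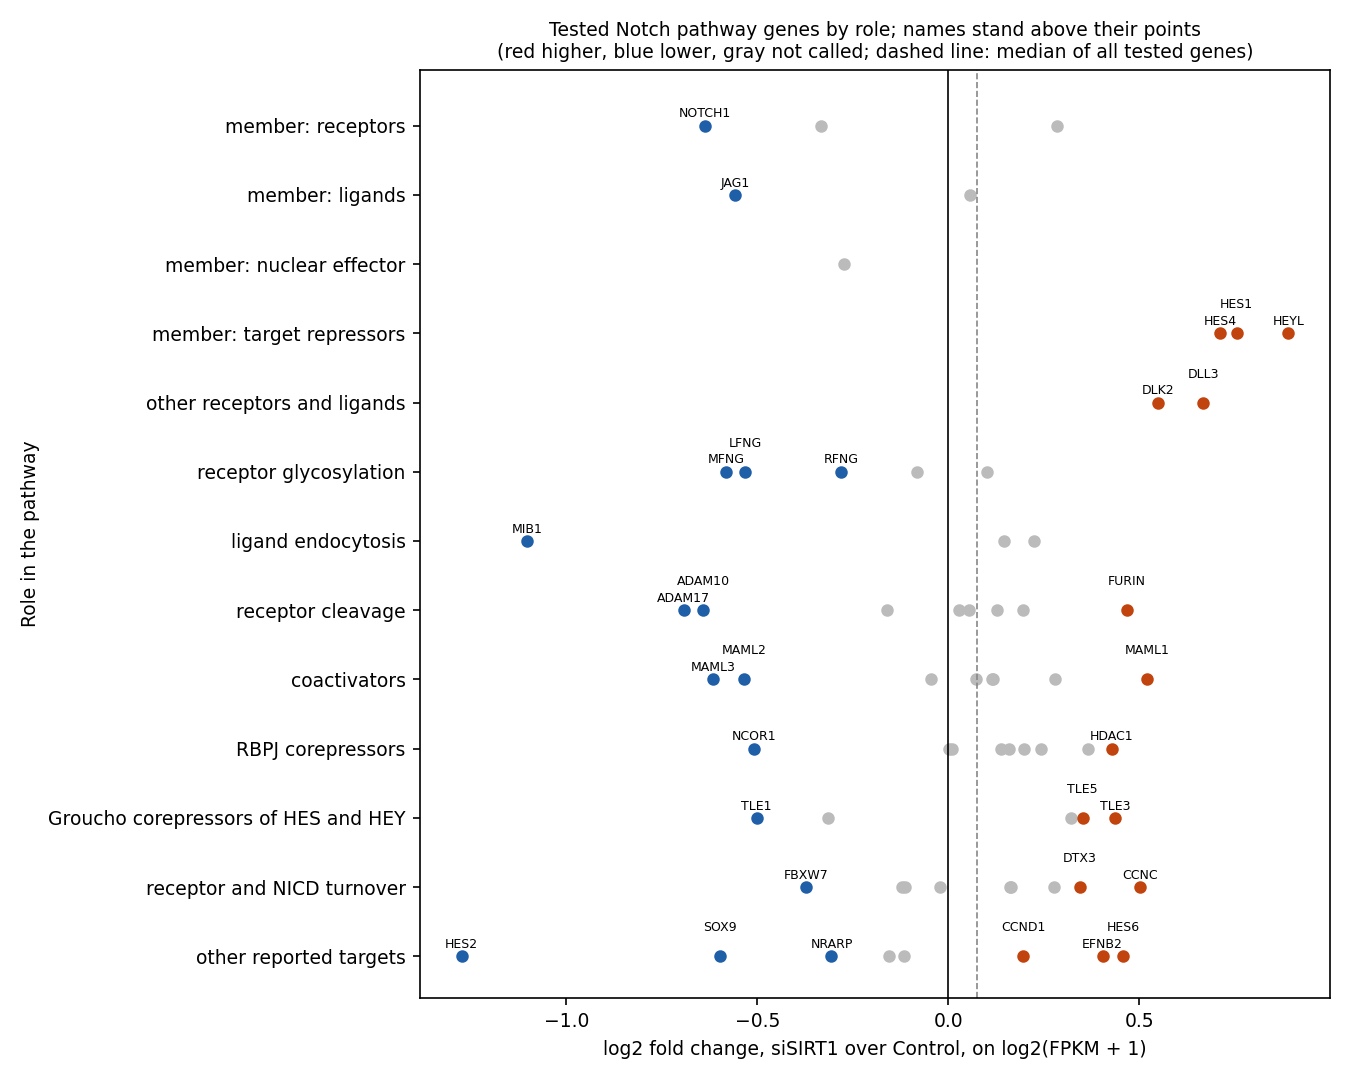
Log2 difference between siSIRT1 and Control on log2(FPKM + 1) for each of the tested Notch pathway genes, 1 row per role, in red where higher, in blue where lower and in gray where not called at an adjusted p below 0.05. The dashed line is the median of all tested genes (0.07), and the largest falls are those of HES2 and MIB1.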

How the data were processed

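Total RNA of PANC-1 cells was sequenced, and the authors deposited 1 table of FPKM values per library, normalised by them to transcript length and mapped fragments. The submitters' processing notes name HISAT, Bowtie2, RSEM and ChIPseeker. Genome build and strand setting are not given in the sources used here. Read numbers were therefore estimated from the whole-read steps of FPKM in single-exon genes. Groups were taken from the treatment labels. The 12191 of 16878 genes whose 4-library mean reached 1 FPKM were fitted on log2(FPKM + 1) with limma 3.58.1 in R 4.3.3 (empirical Bayes with a mean-variance trend), with Benjamini-Hochberg adjustment over all tested genes and a threshold of 0.05. The script was tested on simulated data. The genes named are the 10 Notch genes and, from the listed pathway genes, those called, those below the filter and the neighbours needed to describe a role. Some pathway genes are not reported here. The members were chosen by symbol, and they and the lists were set with earlier results of these data known. Gene positions and transcript lengths are from GENCODE on GRCh37 (99.2% of tested genes), and promoters are from RefSeq on GRCh38.p14, placed on GRCh37 by exact match. The alternatives were another pseudocount, no filter, 4 normalisations, the replicate block, no trend and each library left out. Adjustment for transcript length and for GC content was added after seeing the data. Confidence intervals are 95% and not adjusted for the number of genes.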

Additional observations from a re-analysis of the deposited data

How the results depend on the processing

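Of the 15 settings, 14 were alternatives to the one reported. The number of Notch genes called was 5 to 7 of 9, and SIRT1 stayed lower in all of them (-2.37 to -1.90 on the log2 scale). JAG2 changed sign, to -0.013 under quantile normalisation, -0.026 under median-of-ratios scaling, -0.002 under equal FPKM sums, -0.02 under upper-quartile scaling and -0.002 with the GC adjustment. The cause was not tested. Of 4521 calls over all genes 64.8% were higher, against 53.3% under quantile normalisation, 49.6% under median-of-ratios scaling, 55.5% under equal FPKM sums, 51.3% under upper-quartile scaling, 49.0% with the length adjustment and 50.6% with the GC adjustment, and no setting moved the median of all genes by more than 0.1. When 1 library was left out, and the lone library was assumed to vary like the other group, the calls numbered 2691 to 4608 over all genes and 16 to 25 among the 68 other pathway genes. They were fewest without Control-1 (2744) and Control-2 (2691 and 16). Replicate numbers are shared by the groups, but with 2 pairs they share only a number (correlation of same-numbered deviations 0.123). With the replicate block, 5393 genes were called, 6 of them Notch genes, NOTCH2 among them (adjusted p = 0.00606, limma). Groups of 2 libraries and, for HEY1 and HEYL, low read numbers limit what could be detected.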
